A study of Mus musculus with 9 samples.

Results

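The amino acid transporter genes described here were the rows of the deposited count tables whose symbols belong to the solute carrier families Slc1, Slc3, Slc6, Slc7, Slc36, Slc38 and Slc43. The rule found 61 genes among 52160 symbols: 19 of Slc6, 15 of Slc7, 11 of Slc38, 7 of Slc1, 4 of Slc36, 3 of Slc43 and 2 of Slc3. Of these, 43 passed the filter on low counts and were tested, 14 had too few counts, and 4 had no count in any library. The rule is by name, so it takes in the neurotransmitter, taurine, betaine and creatine carriers of Slc6 and leaves out transporters of other families.

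Polyadenylated RNA came from renal tissue (whole kidney in the series' design). The mice were 16 weeks old and their strain background was C57Bl/6N, with 3 libraries in each of 3 groups. The control group was wild type (WT). The 2nd group (ΔPod) had a deletion of Ybx1, the gene of the cold shock Y-box binding protein, from podocytes. The 3rd group (K2A) carried, in podocytes, a Ybx1 mutant with the substitutions K299A and K302A in exon 7 that is deficient in secretion. No agent was given to any group in the labels. They give neither the driver of recombination nor a supplier for the mutants, and they do not say whether a library was a single animal. The p-values therefore cover only the spread among these samples, which may be technical. Podocytes are a small part of the kidney, and the transporters described here are for the most part genes of the tubule.

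Amino acids are filtered in the glomerulus and almost all are taken back by the proximal tubule. Carriers of the brush border, such as the neutral amino acid transporters Slc6a19 and Slc6a18, the glutamate transporter Slc1a1 and the cystine and dibasic amino acid exchanger made of Slc3a1 and Slc7a9, bring them into the cell, and exchangers built on Slc3a2 with a light chain such as Slc7a7 or Slc7a8 pass them to the blood. Slc7a13 is a light chain that pairs with Slc3a1 in the last part of the proximal tubule, and Slc7a12 is a related light chain without an assigned partner. In the mouse kidney both are known for a difference between the sexes, Slc7a13 being the male-biased and Slc7a12 the female-biased gene.

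The libraries differed in ways that touch every value below. Total counts ran from 30776806 to 46852490. They were also put into 2 classes by the sign of a slope on transcript length. Against the average library, counts rose with transcript length in the long class (WT 1, WT 3, ΔPod 3 and K2A 3) and fell with it in the short class (WT 2, ΔPod 1, ΔPod 2, K2A 1 and K2A 2). The slope was -0.0592 in WT 2 but -0.1416 to -0.3762 in the short-class mutant libraries, so that the short class was not matched in length. Differences within the short class rest on 1 WT library, and those within the long class on 1 library of each mutant. Ybx1 itself, deleted or mutated in podocytes only, was at 554 to 1585 CPM in all libraries, each mutant library below each WT library, and was not called (adjusted p = 0.465 in ΔPod and 0.725 in K2A, edgeR). A count over the whole gene does not see the K2A substitutions. The Y-linked transcripts Ddx3y, Eif2s3y, Uty and Kdm5d together had 3404 to 4148 counts in the WT libraries, none in the ΔPod libraries and 22, 8 and 0 in K2A 1, K2A 2 and K2A 3, whereas Xist had no count in WT and 17 to 331 CPM in the mutants. CPM are counts scaled to the size and composition of each library. By these transcripts, WT had a male pattern and both mutant groups a female one, so that genotype and sex cannot be told apart in either comparison with WT. Of the proximal tubule markers Lrp2, which encodes megalin, lay at 1583, 406 and 1549 CPM in WT, 438, 453 and 1451 in ΔPod and 189, 181 and 1684 in K2A, so that this marker of the labelled tissue was present in all 9 libraries. Markers of fat cells stood at a summed level of 0.229 to 0.395 CPM in WT, 134, 5.98 and 0.504 CPM in ΔPod and 206, 602 and 2.81 CPM in K2A, and urothelial markers at 4.55 to 8.21, 0.484 to 40.5 and 5.64 to 53.5 CPM.

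Slc7a12 and Slc7a13 carry the results, and since they are relatives, it matters whether reads can tell them apart. Their coding sequences (GENCODE vM21, mm10), of 1395 and 1434 bases, were identical at 867 of 1377 aligned positions (63%), and the longest run of bases common to both was 11. The most alike ungapped stretch of 60 bases lies in exon 2 of each gene and is shown for that reason, with the 10 bases that differ in capitals. It covers coding bases 733 to 792 of Slc7a12 (chr3:14497297-14497356, plus strand) and 763 to 822 of Slc7a13 (chr4:19823995-19824054, plus strand).
Slc7a12: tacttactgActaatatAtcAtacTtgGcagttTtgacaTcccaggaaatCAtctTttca
Slc7a13: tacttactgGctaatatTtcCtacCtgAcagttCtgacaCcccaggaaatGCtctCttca
The annotated transcripts of Slc7a12 and Slc7a13 shared no run of 50 bases with each other. Slc7a12 shared 4 of its 1787 such runs (0.224%), all with Gm38311, and Slc7a13 10 of 2092 (0.478%), all with 9530036O11Rik. Among all members 55 of 61 shared under 1% of such runs with other genes, and Slc38a6 shared the most (22.8%). Slc36a1 and Slc36a2 shared 88 runs with each other, so the lower of that pair, Slc36a2, is the less certain.

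Slc7a13 (chromosome 4, 19818725 to 19842218) had a level of 1116, 1092 and 996 CPM in WT 1, WT 2 and WT 3. In ΔPod it was at 4.38, 3.89 and 0.907 CPM and in K2A at 7.44, 4.68 and 0.871 CPM. All 6 mutant libraries lay far below the lowest WT library, and the ranges of ΔPod and K2A overlapped. By the ratio of group means it was 349-fold lower in ΔPod and 247-fold lower in K2A, and it fell in the edgeR quasi-likelihood test in both (-8.45 on the log2 scale, SE 1.02, adjusted p = 0.0101 in ΔPod; -7.95, SE 1.0, adjusted p = 0.0151 in K2A). In both mutants the long-class library was the lowest, at 0.907 and 0.871 CPM. Within the long class the difference from WT was -9.55 in ΔPod and -9.59 in K2A on the log2(CPM + 0.5) scale, and within the short class -7.88 and -7.41. Of 6 tested markers of the last part of the proximal tubule 1 was called in each comparison. The shares of all genes called were 0.985% in ΔPod and 0.847% in K2A. The called marker was Aadat, an aminotransferase. It rose from 269.7, 280.2 and 289.9 CPM in WT to 745, 1238 and 1019 in ΔPod (1.84, adjusted p = 0.0225, edgeR). In K2A it was at 1083, 1053 and 929.7 CPM (1.87, adjusted p = 0.0220, edgeR). In whole kidney, fewer cells of a type and less RNA per cell cannot be told apart. The other 5 did not pass and did not move one way. Atp11a, a phospholipid flippase, was at 1438, 643 and 1747 CPM in WT, 28.2, 116 and 319 in ΔPod and 75.6, 57.7 and 497 in K2A, below WT in all 6 mutant libraries (-3.05 and -2.60, adjusted p = 0.301 and 0.418, edgeR). Slc27a2, a fatty acid carrier, lay below WT in all 3 ΔPod libraries (-1.22, adjusted p = 0.381, edgeR). Slc22a19, an organic anion carrier, lay above WT in all 6 mutant libraries (1.44 and 1.1, adjusted p = 0.0693 and 0.172, edgeR). Of the 6, 2 lay above WT without overlap and 2 below in ΔPod (8.73 and 9.47% of all genes). In K2A 3 lay above and 1 below (11 and 9.18% of all genes). The summed level of the 6, in which Napsa and Slc27a2 weigh most, was 7737 to 9227 CPM in WT, 6557 to 8347 in ΔPod and 8089.9 to 9613 in K2A. In the leave-one-out fits the ΔPod call was lost without WT 1, WT 3 or ΔPod 2 (adjusted p 0.0516 to 0.0686), and the K2A call without WT 1, WT 2, WT 3, K2A 1 or K2A 2 (adjusted p 0.0605 to 0.0945), while the fold changes stayed between -8.80 and -7.51.

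Slc7a12 (chromosome 3, 14480697 to 14505830) ran the other way. Its level was 4.38, 2.69 and 6.38 CPM in the WT libraries, 272, 258 and 148 CPM in ΔPod and 148, 131 and 114 CPM in K2A, and neither mutant overlapped WT. It was 50.4-fold higher in ΔPod and 29.3-fold higher in K2A, and it rose in the edgeR test in both (log2 fold change 5.65, SE 0.46, adjusted p = 0.00421; 4.87, SE 0.44, adjusted p = 0.00836). The difference from WT was 4.68 and 4.31 within the long class and 6.38 and 5.45 within the short class. Without WT 1 the K2A call was lost (adjusted p = 0.0541), and no other single library ended either call. Without the 3 libraries richest in fat cell markers (ΔPod 1, K2A 1 and K2A 2, left out after seeing the data) both genes stayed called in ΔPod, while K2A, with 1 library left, had adjusted p = 0.0921 for Slc7a12 and 0.123 for Slc7a13. All 3 K2A libraries lay below the lowest ΔPod library, though K2A 1 (148.3 CPM) and ΔPod 3 (148.5 CPM) were nearly level, and that difference did not pass (log2 fold change of K2A against ΔPod -0.78, SE 0.38, adjusted p = 1, edgeR).

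**Figure D1:**
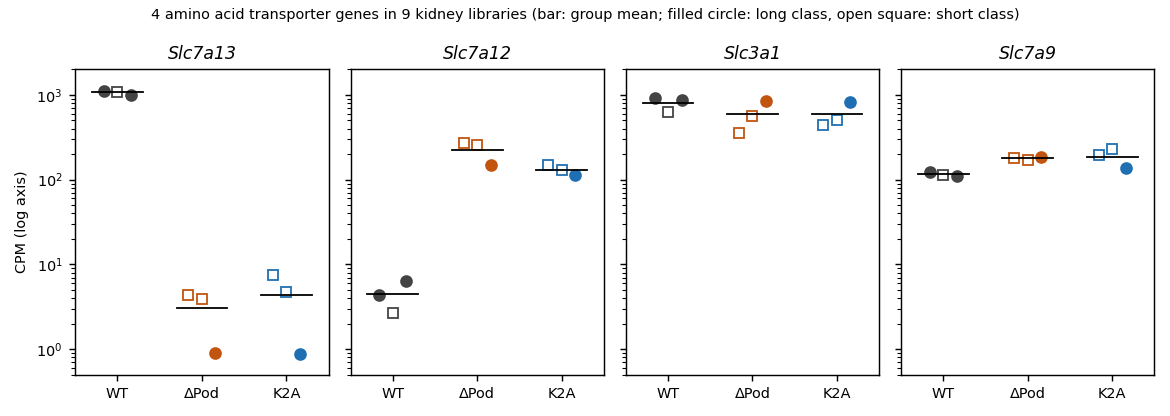
CPM (log axis) of Slc7a13, Slc7a12, Slc3a1 and Slc7a9 in the 3 libraries of each group, with bars at the group means, filled circles for libraries of the long class and open squares for the short class. Slc7a13 lies between 996 and 1116 CPM in WT and at most at 7.44 CPM in the mutants, Slc7a12 lies at most at 6.38 CPM in WT and at least at 114 CPM in the mutants, while Slc3a1 stays between 357 and 919 CPM.

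Summed, Slc7a12 and Slc7a13 were lower in every mutant library than in every WT library. The summed CPM per kb of exon of Slc7a12 and Slc7a13 was 524, 512 and 469 in the WT libraries, 158, 149.8 and 85.7 in ΔPod and 88.7, 77.4 and 66.0 in K2A. The ratio of Slc7a12 to Slc7a13 counts, both scaled to CPM, was 0.00246 to 0.00640 in WT, 62.0 to 164 in ΔPod and 19.9 to 131 in K2A. Slc7a13 alone took 17.3 to 26.6% of all counts of the 61 members in WT and at most 0.280% in the mutants, and Slc7a12 went from 0.0656 to 0.111% in WT to 2.69 to 11.1% in ΔPod and 2.04 to 5.58% in K2A. The summed level of the other 60 members, without Slc7a13, overlapped between groups, at 3013 to 5098 CPM in WT, 2448 to 5510 CPM in ΔPod and 2648 to 5598 CPM in K2A.

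Slc7a12 and Slc7a13 were the only members that edgeR called. In ΔPod against WT edgeR called 1 of 43 tested members higher and 1 lower at a false discovery rate of 0.05, where 0.399% of all 18067 tested genes were called higher and 0.587% lower. Either way that is 4.65% of the members and 0.985% of all genes. The counts in K2A against WT were also 1 higher and 1 lower, with 0.321% and 0.526% of all genes (0.847% either way). Both comparisons share the WT libraries. The tool limma-voom also called 1 member in each direction in both, beside 1.2% of all genes in ΔPod and 1.05% in K2A. DESeq2, which called 5.52% of all genes in ΔPod and 5.03% in K2A, called the same 2 members in ΔPod and 4 in K2A, adding Slc7a6 as higher and Slc1a4 as lower. At an unadjusted p under 0.05 there were 6 members in ΔPod (13.8% of all genes) and 8 in K2A (10.6% of all genes). The groups did not overlap for 9 members in ΔPod (18.2% of all genes), 4 higher (8.73%) and 5 lower (9.47%), and for 8 in K2A (20.1%), 6 higher (11%) and 2 lower (9.18%). These are shares of 20.9% and 18.6% of the tested members and thus near the background. The median log2 fold change of the tested members was -0.17 in ΔPod and -0.28 in K2A, beside 0.08 and 0.09 over all genes. These medians changed when a term for the length slope or length class of each library was added. With the length slope of each library in the model the member medians were 0.17 and 0.01, beside 0.01 and -8e-04 over all genes. With the length class as a term they were 0.04 and 9e-04, beside 0.04 and -0.01.

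**Figure D2:**
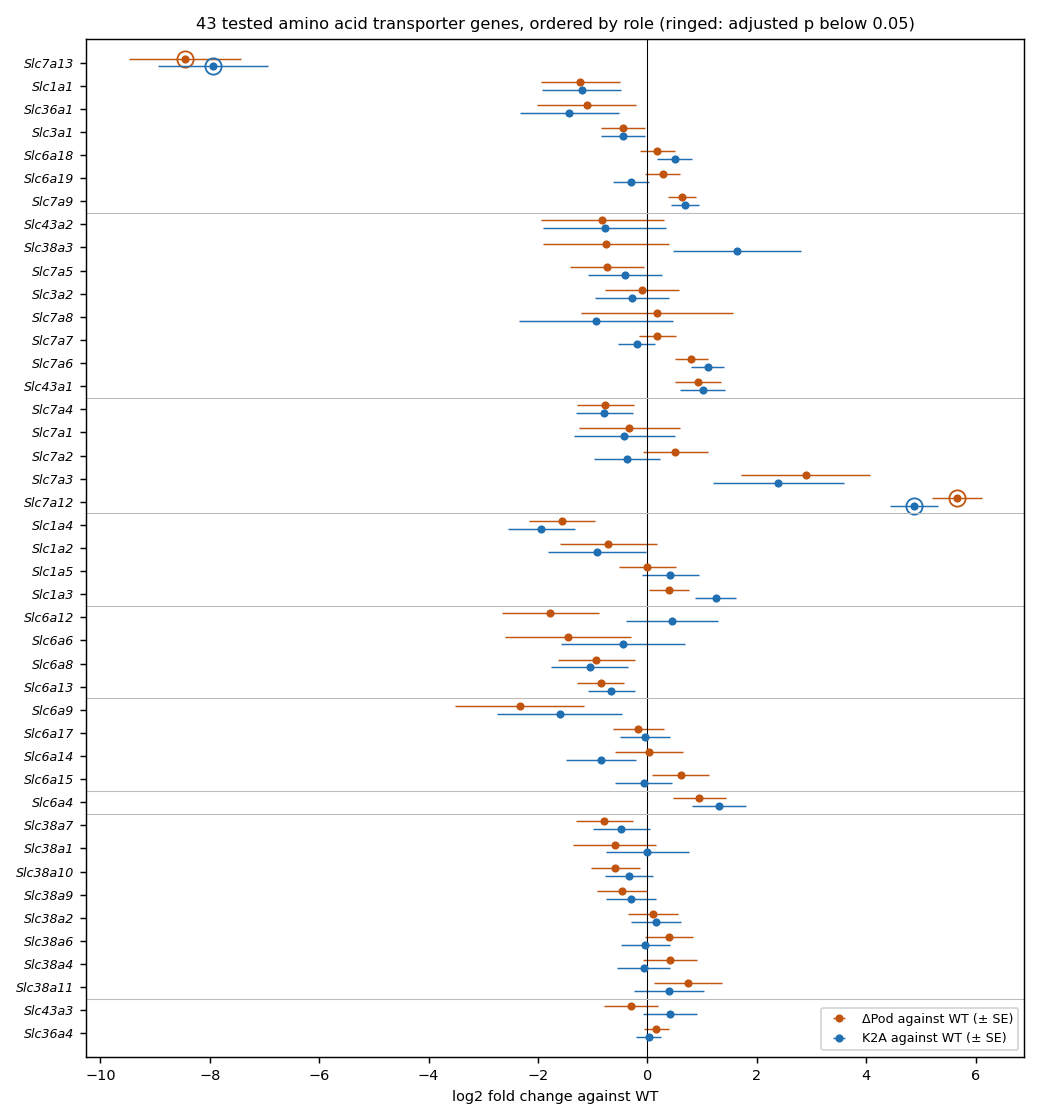
Log2 fold change against WT (x axis) with its standard error for the 43 tested members (y axis), grouped by role from brush border carriers at the top to Slc36 and Slc43 at the bottom, with ringed points for adjusted p below 0.05. Slc7a13 at -8.45 and -7.95 and Slc7a12 at 5.65 and 4.87 are ringed, and the other 41 genes lie between -2.34 and 2.89.

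The remaining carriers of the brush border showed no call. Slc3a1, the heavy chain that Slc7a13 and Slc7a9 need to reach the membrane, was at 919, 634 and 865 CPM in WT, 357, 559.8 and 852 in ΔPod and 439, 501 and 829 in K2A. The groups overlapped, with log2 fold change -0.45, SE 0.40, adjusted p = 0.571 in ΔPod and -0.45 (SE 0.40, adjusted p = 0.762) in K2A. The ratio of Slc7a13 to Slc3a1, both in CPM, was 1.15 to 1.72 in WT and at most 0.0169 in the mutants. Slc7a9, the light chain of the cystine exchanger whose loss causes cystinuria, was at 122, 113 and 112 CPM in WT, 180.1, 168 and 187 in ΔPod and 196, 227 and 137 in K2A. Every mutant library lay above every WT library, yet the difference did not pass the edgeR test (log2 fold change 0.63, SE 0.26, adjusted p = 0.350; 0.69, SE 0.26, adjusted p = 0.356). The difference within the long class was 0.68 in ΔPod and 0.23 in K2A, and within the short class 0.62 and 0.90.

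Slc6a18, a transporter of glycine and other neutral amino acids, was at 628, 501 and 578 CPM in WT, 540.4, 733 and 657 in ΔPod and 610.4, 642 and 1154 in K2A (0.18 and 0.50, adjusted p = 0.774 and 0.685, edgeR). K2A 3 stood above all other libraries. Slc6a19, the main neutral amino acid carrier of the early proximal tubule, was at 404, 219 and 294 CPM in WT, 389.8, 270.2 and 452 in ΔPod and 207, 248 and 289.8 in K2A, with overlapping ranges (log2 fold change 0.28 and -0.30). Cltrn, an X-linked gene whose protein brings these carriers to the brush border, was not called either. Of 9 tested partner genes and transporters outside the naming rule, among them Slc6a20b, a proline carrier, and Slc16a10, an aromatic amino acid carrier, none was called in any of the 3 comparisons.

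Slc1a1, the glutamate and aspartate carrier, was at 397, 195 and 360.4 CPM in WT, 47.6, 120.5 and 240.0 in ΔPod and 69.4, 70.4 and 275 in K2A. The long-class mutant libraries reached the WT range and the others did not, and the fold changes of -1.22 and -1.20 (SE 0.72 and 0.72) did not pass (adjusted p = 0.431 and 0.645). Slc36a1, a proton-coupled carrier of small amino acids also found on lysosomes, was at 77.2, 45.8 and 105 CPM in WT, 10.6, 14.5 and 80.4 in ΔPod and 12.5, 12.3 and 59.8 in K2A.

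On the basolateral side none of 8 tested genes was called. Slc3a2, the heavy chain of these exchangers, was at 281, 144 and 269 CPM in WT, 56.2, 133 and 455 in ΔPod and 149.8, 168 and 255 in K2A. ΔPod held both the lowest and the highest library, and its log2 fold change of -0.11 (SE 0.68, adjusted p = 0.940) turned positive under upper quartile scaling (0.0048). Its light chain Slc7a8, for neutral amino acids, varied the most within ΔPod of the 43 tested members, with 9.66, 46.5 and 618 CPM in ΔPod beside 268, 59.4 and 269.9 in WT and 29.7, 33.1 and 248 in K2A. Slc7a7, the light chain for dibasic amino acid efflux, was at 227, 170.0 and 204 CPM in WT, 192, 186 and 302 in ΔPod and 205, 209 and 111 in K2A, with K2A 3 the lowest library (log2 fold change 0.18 and -0.20, not called). Slc7a6, another dibasic light chain (chromosome 8, 106168857 to 106198706), was low, at 2.58, 2.63 and 4.03 CPM in WT, and lay higher in every mutant library, at 5.75, 5.06 and 5.28 in ΔPod and 6.51, 8.12 and 5.25 in K2A. It did not pass in edgeR (log2 fold change 0.80, SE 0.30, adjusted p = 0.320; 1.1, SE 0.30, adjusted p = 0.186), while DESeq2 called it higher in K2A at 1.04 (adjusted p = 0.0188). Its opposite-strand neighbour Slc7a6os is a row of its own, and as the strand setting of the counting is not given in the sources used here, reads of the pair may be mixed. Slc43a1, a large neutral amino acid carrier, was at most 1.88 CPM in any library (0.93 and 1.01, adjusted p = 0.373 and 0.429).

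Slc43a2, a carrier of the same kind, was at 233, 83.6 and 239 CPM in WT, 15.4, 47.2 and 251 in ΔPod and 32.9, 30.4 and 259.7 in K2A, so that the long-class library of each mutant lay above WT and the other mutant libraries below it. Slc7a5, the light chain for large neutral amino acids, was at 4.38, 1.95 and 3.21 CPM in WT, 0.543, 1.69 and 3.45 in ΔPod and 1.64, 1.42 and 4.07 in K2A, and the groups overlapped.

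The cationic amino acid carriers of Slc7 work without a heavy chain, and none was called. Slc7a1 was at 9.29, 2.92 and 8.40 CPM in WT, 1.48, 2.72 and 12.1 in ΔPod and 2.08, 2.25 and 11.0 in K2A. Slc7a2 was at 6.18, 2.55 and 4.60 CPM in WT, 4.16, 3.19 and 11.6 in ΔPod and 2.36, 2.40 and 5.54 in K2A. For both, and for the related orphan Slc7a4, the ranges of all 3 groups overlapped.

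Slc38a3, the glutamine carrier that feeds ammonia production and is known to rise in acidosis, had a K2A mean set by a single library. It was at 39.6, 24.6 and 30.4 CPM in WT, 4.12, 15.1 and 36.7 in ΔPod and 13.2, 16.8 and 265 in K2A. K2A 3 stood far above every other library, while K2A 1 and K2A 2 lay below all WT libraries. The log2 fold change in K2A was 1.64 (SE 1.17, adjusted p = 0.713) and became -1.12 without K2A 3. Between the mutants it was 2.40 (adjusted p = 1), and -0.34 without that library. In K2A 3 the proximal tubule transcripts Gatm and Miox were at their lowest, at 284 and 1221 CPM against at least 837 and 2530.5 CPM in the other libraries. Lrp2, a marker of the same list, was at its highest there, at 1684 CPM. The summed level of the 10 proximal tubule markers was 8974 CPM in K2A 3, above ΔPod 1 (6740), ΔPod 2 (7862) and K2A 1 (7810) and below the rest. The part of proximal tubule content in the result was not tested.

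Among the Slc1 carriers outside the brush border, Slc1a4, which carries serine, alanine and other small neutral amino acids (chromosome 11, 20302180 to 20332713), had the lowest fold change. It was at 38.6, 21.5 and 42.9 CPM in WT, 5.14, 9.78 and 19.8 in ΔPod and 6.17, 5.25 and 15.4 in K2A, so that all 6 mutant libraries lay below all WT libraries. In edgeR it did not pass (log2 fold change -1.57, SE 0.60, adjusted p = 0.329; -1.94, SE 0.61, adjusted p = 0.252). DESeq2 called it lower in K2A at -1.98 (adjusted p = 0.0365) and not in ΔPod, at -1.58 (adjusted p = 0.121). The differences within the long class were -1.02 in ΔPod and -1.37 in K2A, and within the short class -1.53 and -1.83. Slc1a3, a glutamate carrier best known from glia, was at 2.77, 1.46 and 1.88 CPM in WT, 3.11, 2.98 and 2.0 in ΔPod and 4.83, 6.17 and 3.51 in K2A. All 3 K2A libraries lay above the others, without passing (1.25 against WT, adjusted p = 0.225; 0.84 against ΔPod, adjusted p = 1).

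The osmolyte and creatine carriers of Slc6 had a median log2 fold change of -1.19 in ΔPod and -0.55 in K2A, and 0 of 4 tested were called. Over all genes the medians were 0.08 and 0.09. Slc6a6, which takes up taurine, was at 416, 142 and 427 CPM in WT, 19.7, 56.7 and 285 in ΔPod and 58.9, 66.1 and 599 in K2A, with K2A 3 the highest of the 9 and a log2 fold change of -1.45 (SE 1.16) in ΔPod and -0.44 (SE 1.14) in K2A. Slc6a8, the X-linked creatine carrier, was at 339.7, 169 and 316 CPM in WT, 51.6, 91.1 and 289 in ΔPod and 79.8, 79.1 and 238 in K2A, overlapping between groups (-0.94 and -1.06). Slc6a13, which carries GABA, taurine and betaine, was at 186, 122 and 158 CPM in WT, 51.0, 88.5 and 118 in ΔPod and 70.4, 68.9 and 156 in K2A. ΔPod lay below WT without overlap (-0.86, adjusted p = 0.395, edgeR), and K2A overlapped (-0.66). Within the long class Slc6a6 differed from WT by -0.57 in ΔPod and 0.51 in K2A, and within the short class by -2.07 and -1.18. For Slc6a8 these values were -0.18 and -0.46, and -1.29 and -1.08. For Slc6a13 they were -0.54 and -0.14, and -0.86 and -0.80. For Slc6a12 they were -2.22 and 0.17, and -0.22 and 0.98.

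Slc6a12, the betaine carrier of the medulla, had 94, 31 and 56 counts in WT, 15, 37 and 1 in ΔPod and 73, 74 and 92 in K2A. In CPM it was at 2.61, 0.888 and 1.38 in WT, 0.543, 0.867 and 0.0202 in ΔPod and 2.26, 2.19 and 2.23 in K2A. By CPM ΔPod lay below both other groups, with a single count in ΔPod 3, though ΔPod 2 and WT 2 were nearly level. In ΔPod 3 the collecting duct marker Aqp2 was at 321 CPM, within the range of WT (515, 334 and 233 CPM), and the urothelial markers were the lowest of all. Aqp2 is 1 of 10 listed markers of the loop, distal tubule and collecting duct, whose log2 fold changes in ΔPod ran from -1.03 to 1.56. The part of medulla in the result was not tested. The betaine carrier did not pass in edgeR (-1.78 in ΔPod against WT, adjusted p = 0.390; 2.23, SE 0.90, adjusted p = 1 in K2A against ΔPod).

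The serotonin carrier Slc6a4, the only tested member of the monoamine group, was at 5.71, 4.15 and 5.71 CPM in WT, 4.23, 9.14 and 16.7 in ΔPod and 9.67, 11.3 and 17.7 in K2A. K2A lay above WT without overlap, and neither comparison passed (0.95 and 1.31, adjusted p = 0.397 and 0.357, edgeR). The glycine carrier Slc6a9 was at 37.3, 17.1 and 32.7 CPM in WT, 0.362, 4.13 and 12.7 in ΔPod and 3.07, 3.02 and 22.5 in K2A. Its ΔPod values did not reach the lowest WT library, and the fold change of -2.34 had an SE of 1.18. Of 8 tested Slc38 genes beside Slc38a3 none was called, with log2 fold changes of -0.79 to 0.74 (ΔPod) and -0.47 to 0.40 (K2A). These carry glutamine and other neutral amino acids, and Slc38a9 is an arginine sensor of the lysosome.

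In the kidneys of WT the order of levels per kb of exon began with Slc7a13 (521, 510.0 and 465 CPM per kb), Slc3a1 (405, 279 and 381) and Slc6a18 (142, 113 and 131), and these 3 ranges did not overlap each other or that of the 4th gene, Slc3a2 (40.7 to 79.6). From the 4th to the 13th place, through Slc6a19, Slc7a7, Slc6a13, Slc6a8, Slc7a9, Slc7a8, Slc6a6, Slc1a1 and Slc38a10, the range of each gene overlapped that of the next. Slc7a12 stood 24th of 61 in WT and 3rd in both ΔPod and K2A, and Slc7a13 stood 1st in WT, 26th in ΔPod and 25th in K2A. In both mutants Slc3a1 was 1st and Slc6a18 2nd, with overlapping ranges, and Slc7a12 overlapped Slc6a18 in ΔPod but not in K2A. Slc7a12 also overlapped the 4th gene, which was Slc6a19 in ΔPod and Slc7a9 in K2A. With the length of the longest transcript in place of all exons the first 3 places in WT were the same, and Slc1a1 moved from 12th to 5th.

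**Figure D3:**
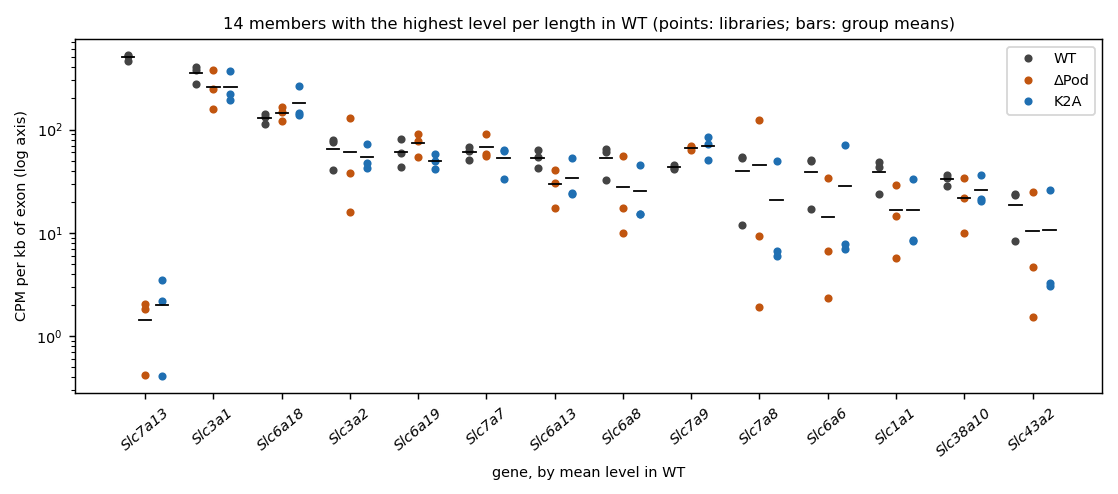
CPM per kb of exon (log axis) for the 14 members with the highest mean in WT, ordered from left to right, with 1 point per library and bars at the group means. Slc7a13 is the highest in WT and averages 1.43 in ΔPod and 2.02 in K2A, and the mutant points of Slc7a8, Slc6a6 and Slc43a2 spread over more than 10-fold within ΔPod.

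The members also differed between libraries of the same group, along the length classes. For 37 of 43 tested members in WT, 35 in ΔPod and 35 in K2A the long-class level was above the short-class level, with medians of 0.60, 1.21 and 0.82 on the log2(CPM + 0.5) scale, beside 48.9, 51.0 and 47.1% of all tested genes and medians near 0 (-0.02, 0.04 and -0.09). Slc7a8 differed by 2.17, 4.82 and 2.96 in WT, ΔPod and K2A, and Slc6a6 by 1.56, 3.07 and 3.25. Slc7a13 went the other way in the mutants (-1.72 and -2.23) and hardly differed in WT (-0.05). Across the 43 genes the difference had a Spearman correlation with exon length of 0.30 in WT, 0.32 in ΔPod and 0.47 in K2A, a description in which all genes share the same libraries. The classes also differed in content. Ribosomal protein transcripts took 0.999 to 1.17% of counts in the long class and 2.44 to 7.86% in the short class. The summed proximal tubule markers were at 16604 to 18693 CPM in WT 1, WT 3 and ΔPod 3. They were at 8974 CPM in K2A 3 and 6740 to 11281 CPM in the short class. The part of either in the differences between classes was not tested. The median fold between the highest and lowest library of a group was 1.67 in WT, 3.10 in ΔPod and 1.89 in K2A. Slc36a4, a proline and tryptophan carrier, was among the steadiest members, at 11.2, 10.1 and 10.9 CPM in WT, 12.2, 11.5 and 12.2 in ΔPod and 10.4, 10.1 and 12.2 in K2A, with ΔPod above WT and no call (0.16 and 0.02).

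**Figure D4:**
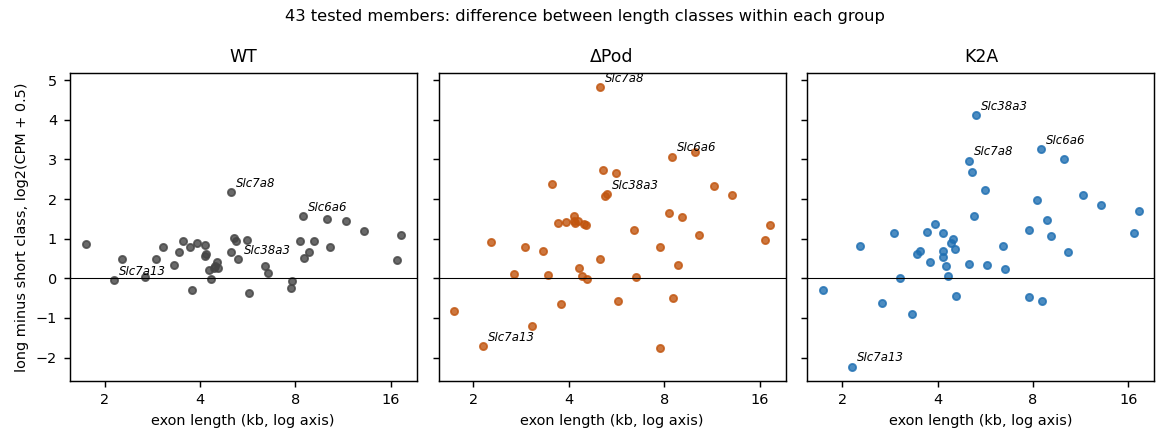
Mean log2(CPM + 0.5) of the long-class libraries minus that of the short-class libraries (y axis) against exon length in kb (log axis) for the 43 tested members, with 1 panel for each group. Most points lie above 0 in every panel, Slc7a8 is the highest in WT and ΔPod and Slc38a3 in K2A, and Slc7a13 lies below 0 in both mutants.

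With each library's length slope in the model, edgeR called 9 members in ΔPod, 2 higher and 7 lower, and 14 in K2A, 8 higher and 6 lower. Under that fit 14.2% of all genes were called in ΔPod and 15.7% in K2A, which is the background to read these counts against. The slope, and the classes drawn from it, were estimated from the same counts that were then tested, so that the p-values below do not allow for that step. Slc1a4 was called lower at -1.1 (adjusted p = 8.73e-04) in ΔPod and -1.55 (adjusted p = 1.09e-04) in K2A, and Slc6a4 higher at 1.25 (adjusted p = 0.00493) and 1.65 (adjusted p = 0.00103). Slc6a9 was at -1.84 (adjusted p = 0.0115) and -1.29 (adjusted p = 0.0358), Slc36a1 at -0.68 (adjusted p = 0.0444) and -1.03 (adjusted p = 0.00711), and Slc1a1 at -0.67 (adjusted p = 0.0290) and -0.85 (adjusted p = 0.00842). Slc6a8 was called lower in both comparisons. Slc6a6 was called in ΔPod at -0.83 (adjusted p = 0.00378) and was at -0.11 (adjusted p = 0.582) in K2A. In K2A, Slc7a6, Slc7a9, Slc1a3, Slc6a18, Slc1a5, a glutamine carrier, and Slc43a3, a purine base carrier, were called higher at 0.61 to 1.06. With the 2 classes as a plain term instead, the added calls were Slc1a4 in ΔPod and in K2A (-1.26 and -1.64) and Slc6a4 in K2A (1.56), beside 3.96 and 4.09% of all genes.

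**Figure D5:**
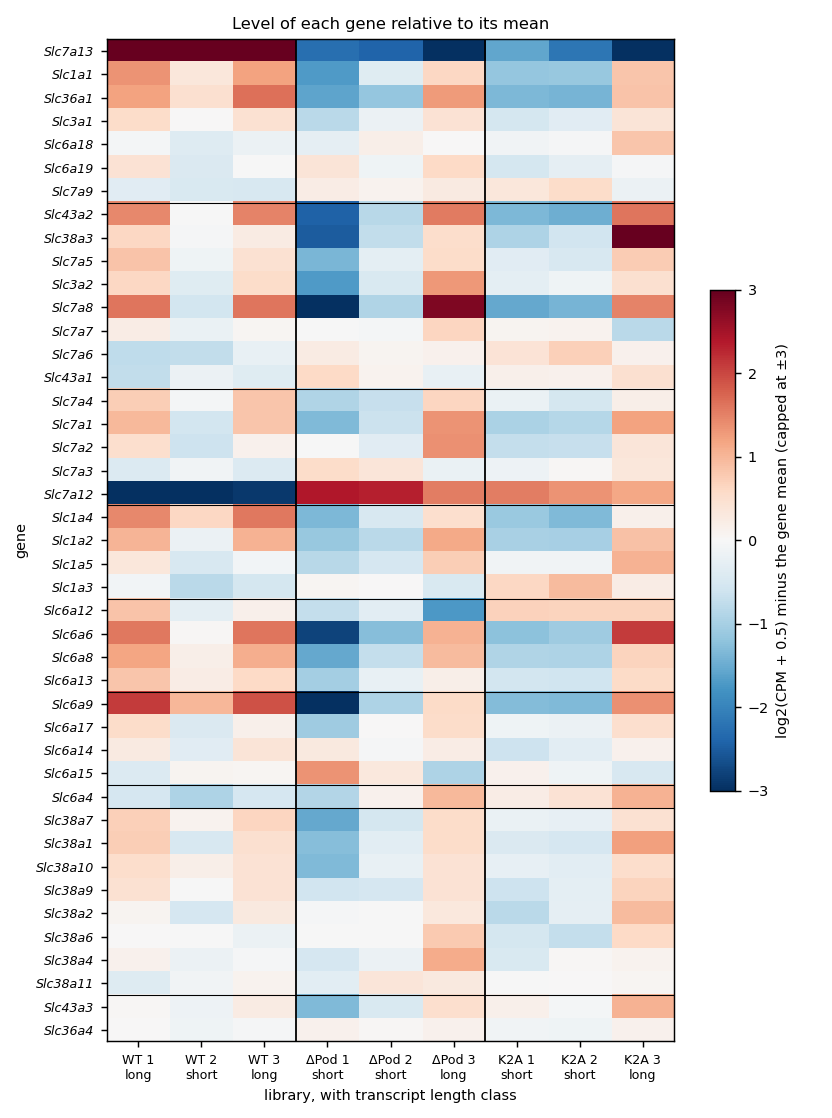
Log2(CPM + 0.5) minus the mean of each gene over the 9 libraries (colour, capped at 3 in either direction) for the 43 tested members (rows, by role) in each library (columns, with its length class). Slc7a13 and Slc7a12 separate WT from all mutant libraries, and many other genes are higher in the long-class libraries WT 1, WT 3, ΔPod 3 and K2A 3 than in the rest.

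No member was called between K2A and ΔPod, whose libraries had the same pattern of Xist and Y-linked transcripts. Of 43 tested members edgeR called 0, with 2 at an unadjusted p under 0.05 (Slc6a12 and Slc1a3), and DESeq2 and limma-voom also called 0. Over all genes edgeR called 0 (0%), with 2.01% at an unadjusted p under 0.05, and DESeq2 called 0.105%. The mutants did not overlap for 3 members (5.11% of all genes), with K2A higher for Slc6a12 and Slc1a3 (3.51%) and lower for Slc7a12 (1.61%). Slc7a13 differed by 0.50 (SE 0.75) and Slc6a19 by -0.58 (SE 0.33). A missing call does not show that the mutants were alike.

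A pair of members with few counts was highest in the libraries with the most fat cell marker RNA, and was picked out after the values were seen. Slc36a2, a proton-coupled carrier known as a surface marker of brown and beige fat cells as well as a renal carrier, had 2, 1 and 1 counts in WT, 7, 7 and 6 in ΔPod and 42, 112 and 4 in K2A. Slc7a10, a light chain known as a surface marker of white fat cells, had 1, 1 and 0 counts in WT, 0, 0 and 0 in ΔPod and 14, 14 and 0 in K2A. K2A 1 and K2A 2, where both were highest, were also the libraries with the highest adiponectin (Adipoq) level, 22.2 and 58.5 CPM, against at most 0.703 CPM in WT, ΔPod 2, ΔPod 3 and K2A 3. ΔPod 1, with 15.0 CPM of Adipoq, had 7 counts of Slc36a2 and none of Slc7a10. All 6 fat cell markers were detected in K2A 1 and K2A 2, and Ucp1, the brown fat uncoupling protein, was at 0 counts in WT and in K2A 3. The part of fat tissue in these counts was not tested.

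Of the other untested members, Slc6a7, a proline carrier best known from the brain, had 4, 4 and 3 counts in WT, 0, 4 and 42 in ΔPod and 5, 4 and 16 in K2A, highest in the long-class library of each mutant. Slc6a16, an orphan carrier, had 13 counts in K2A 3 and at most 5 in any other library. The rest had at most 9 counts in a library. The limit of detection, 3 counts over a group, corresponds to 0.0269 CPM in WT, 0.0250 in ΔPod and 0.0280 in K2A, for counting error only. Slc7a11, the cystine and glutamate exchanger that is induced by amino acid lack and oxidative stress, had 7, 2 and 1 counts in WT, 1, 4 and 1 in ΔPod and 1, 1 and 6 in K2A. Slc7a3, an X-linked arginine carrier that passed the filter, had 0, 4 and 0 counts in WT, 13, 15 and 4 in ΔPod and 3, 6 and 14 in K2A and did not pass the test (adjusted p = 0.344 and 0.554). Slc6a2, Slc6a21, Slc7a14 and Slc36a3 had no count in any library.

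Genes of the amino acid response, which the transcription factor Atf4 drives when amino acids run short and which includes several of these transporters among its targets, showed 1 call. Of 11 tested genes Atf3 rose in ΔPod, from 0.749, 1.69 and 1.31 CPM to 5.71, 4.71 and 6.83 CPM (adjusted p = 0.0319, edgeR, for a log2 change of 2.20 with SE 0.36), and was at 3.29, 2.93 and 2.59 CPM in K2A (1.23, adjusted p = 0.210). That call stands beside 0.985% of all genes called in ΔPod. The median of the 11 was 0.47 in ΔPod and 0.64 in K2A, beside 0.08 and 0.09 over all genes, and the genes did not move one way. Sesn2 (-0.88 in ΔPod and -0.49 in K2A) and Vldlr (-0.42 and -0.53) were lower in both mutants. Chac1 (-0.33) and Trib3 (-0.10) were lower in ΔPod only, and the rest were higher in both. Asns, which makes asparagine, was at 4.69, 4.64 and 4.77 CPM in WT, 3.73, 7.06 and 8.75 in ΔPod and 7.16, 7.41 and 7.89 in K2A, and Slc38a2, a target of the same factor, at 45.9, 30.8 and 53.4 CPM in WT, 42.3, 43.4 and 54.3 in ΔPod and 24.9, 35.8 and 84.3 in K2A, without a call in any of the 3 comparisons.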

How the data were processed

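RNA of 9 kidney libraries (3 WT, 3 ΔPod, 3 K2A) was analysed from the counts per gene that the authors deposited in one table for each mutant, both holding the same WT libraries. Per the labels' protocols, RNA was purified with RNeasy columns, 500 ng were enriched for polyadenylated RNA with oligo-dT beads, and ScriptSeq v2 was the library kit. The submitters' processing notes name the build mm10 and the tools featureCounts 2.0.1, STAR 2.7.3a and Trim Galore 0.6.3. The deposited counts were joined by symbol (52160 shared symbols, after leaving out 3 whose WT counts differed between the tables). Genes were filtered with filterByExpr and tested with the quasi-likelihood test of edgeR 4.0.16 (R 4.3.3) on all 9 libraries with TMM scaling, and p-values were adjusted by Benjamini-Hochberg over 18067 genes with a threshold of 0.05. CPM are the deposited counts scaled to the TMM-corrected library size, and levels per kb use exon lengths of GENCODE vM21 (mm10), as do the coding sequences. Within-class values use log2(CPM + 0.5). Total counts were 30776806 to 46852490 a library, and the limit of detection is 3 counts a group. Replicates of a group differed beyond sampling noise, so none were merged. Alternatives were other scalings, filters and tools (DESeq2 1.42.0, limma-voom 3.58.1), covariates for transcript length and the replicate number, and leaving out libraries. Same-numbered ΔPod and K2A libraries deviated together from their group means (correlations 0.76, 0.41 and 0.85), although the labels do not say what a number shares. ΔPod 1 correlated slightly better with K2A 2 (0.77), and ΔPod 2 with K2A 1 (0.45). In both mutants libraries 1 and 2 were of the short class and library 3 of the long class, so that numbers and length classes cannot be told apart there. The fitting script was tested on simulated data.

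The members and gene lists were chosen with earlier results of these data known. Genes were named by a rule: Slc7a12 and Slc7a13, every called member, the 5 uncalled members with the smallest p in each comparison, the 10 highest WT levels per kb, 12 carriers of known renal or stress roles, and called partner or response genes. Slc36a1, Slc36a2, Slc36a4, Slc1a5, Slc6a7, Slc6a9, Slc6a16, Slc7a1, Slc7a2, Slc7a4, Slc7a5, Slc7a10, Slc38a2, Slc43a2 and Slc43a3 were added after their values were seen, as were the marker genes printed beside a result.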

Additional observations from a re-analysis of the deposited data

How the results depend on the processing

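Of 54 results recomputed under 21 alternatives, 21 never changed, 19 passed the threshold at least once where they had not, 3 lost it at least once and 13 changed sign at least once. Slc7a12 and Slc7a13 kept their direction against WT under all 21. DESeq2 gave 2 higher and 2 lower members in K2A. The length slope gave 2 higher and 7 lower in ΔPod and 8 and 6 in K2A, and the length class gave 2 lower in ΔPod and 2 higher and 2 lower in K2A. Without the 3 libraries with the highest adipocyte marker level, added after seeing the data, K2A had 0 higher and 0 lower, and its 1 library was assumed to vary like the other groups. Leaving out 1 library at a time gave 1 higher and 0 to 1 lower in ΔPod, and 0 to 2 higher and 0 to 1 lower in K2A, where the 2nd higher gene, without K2A 3, was Slc36a2. Replicate numbers did not pair either mutant with WT, since the deviations of same-numbered libraries correlated at -0.62, 0.44 and 0.72 for ΔPod and -0.55, 0.76 and 0.71 for K2A. With the replicate number as a block the counts were again 1 and 1 against WT and 0 between the mutants, so that the block changed no call (against WT Slc7a12 5.66 and 4.87, Slc7a13 -8.86 and -8.45).

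The log2 fold changes that changed sign were these. Slc3a2 in ΔPod was 0.0048 with upper quartile scaling, 0.18 with the length slope, 0.033 with the length class, 0.35 without the adipocyte-rich libraries and -1.32 to 0.34 leaving out 1 library. In K2A, Slc3a2 was 0.37, 0.21 and 0.15 with the length slope, the length class and without those libraries. Slc7a8 in ΔPod was -1.30 with limma-voom, -1.21 with the replicate block and -2.86 to 0.73 leaving out 1 library, and in K2A 0.0069 with the length slope and 0.33 without the adipocyte-rich libraries. Without those libraries, K2A against WT was 0.053 for Slc3a1, 0.016 for Slc6a13 and 0.88 for Slc6a6, and K2A against ΔPod was -1.43 for Slc7a13. Leaving out 1 library gave -0.12 to 0.28 for Slc7a7 in ΔPod, and in K2A -1.12 to 2.15 for Slc38a3, -2.44 to 0.0073 for Slc6a6, -0.13 to 0.63 for Slc1a5 and -0.058 to 0.60 for Slc43a3. Between the mutants it gave -0.13 to 0.98 for Slc7a13 and -0.34 to 3.36 for Slc38a3. The cause was not tested. Upper quartile scaling moved the median of all genes to 0.26 in ΔPod and 0.24 in K2A, and library size alone to 0.11 and 0.17. Depth limits the members with few counts (Slc7a3, Slc7a11, Slc36a2 and Slc7a10).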
